A study of Mus musculus with 6 samples.

Results

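The HIF subunits and oxygen-sensing hydroxylases are 9 genes of the 46983 listed in the bulk RNA-seq of IgA-switching B cells. They were taken by name: the oxygen-regulated α subunits *Hif1a*, *Epas1* and *Hif3a*, their common partner *Arnt*, the prolyl hydroxylases *Egln1*, *Egln2* and *Egln3*, the asparaginyl hydroxylase *Hif1an* and *Vhl*. All 9 were found, and 8 passed the filter for testing, a mean of at least 0.5 FPKM (reads scaled to the length of the gene and the depth of the library). *Epas1*, with a mean of 0.459 FPKM, did not.

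Splenic B cells of C57BL/6 mice were cultured under IgA class switching conditions, 3 libraries from WT and 3 from *Hif1a* KO mice, and every library was collected on day 3. According to the methods, class switching cultures were started from follicular B cells (CD21int CD23+) sorted from the spleen, a gate that would remove macrophages, endothelial and T cells; the labels name only splenic B cells. All 6 cultures, KO and WT alike, received 5 μg/ml of LPS together with 10 ng/ml of each of the cytokines TGF-β, IL-5 and BAFF. The KO mice were *Hif1a* f/f with *Mb1*-cre, which recombines a floxed allele in B-lineage cells. The WT mice were littermates that carried either cre with 1 floxed allele or floxed alleles without cre, and the genotype behind each WT library is not given. The labels do not state whether the libraries of a group came from separate mice, so that the p-values measure the spread between these libraries. The age of the mice is not in the labels, and the floxed part of *Hif1a* is not named in the sources used here.

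HIF is a pair of bHLH-PAS proteins, an α subunit and ARNT, which binds DNA and activates transcription. With oxygen present, the EGLN enzymes hydroxylate prolines of the α subunit, VHL recognizes the hydroxylated protein and a ubiquitin ligase marks it for degradation, while HIF1AN hydroxylates an asparagine and blocks the binding of coactivators. When oxygen is short these enzymes slow down, so that most of the regulation of HIF-1α is at the protein and not at the mRNA, which alone was measured here.

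Depth was 25.0 to 37.2 M counted reads per library. B-cell genes were high in every library, with *Cd74* (the invariant chain of MHC class II) at 2773 to 3426 FPKM, and the 6 T-cell markers, led by *Trac* at 0.248 to 0.685 FPKM, were each under 1 FPKM in every library. A library of each group differed from the rest of its group in some measures. WT replicate 1 lay with the KO libraries on the first principal component (−15.7, against −19.5 to −7.1 for KO and 25.9 to 26.2 for the other WT libraries). It was also the only library with the neutrophil genes *S100a8* and *S100a9* above 1 FPKM, at 10.9 and 19.9 FPKM. The library labelled KO replicate 2 lay with the other KO libraries on the first principal component (−7.1, against −9.9 and −19.5). It differed from them at *Cd79a*, the gene also known as *Mb1*. In the *Mb1*-cre line the recombinase is inserted into *Cd79a* and interrupts that copy. The ratio of *Cd79a* to *Cd79b*, its partner in the B-cell receptor, was 1.74, 1.71 and 1.90 in WT replicates 1 to 3. It was 0.845 and 0.832 in KO replicates 1 and 3 but 1.60 in the library labelled KO replicate 2. That library was also the only one with the Y-linked *Ddx3y* above a trace (43.3 FPKM, against 0 to 0.00945). The ratio was chosen after its values were seen, and its part in the results was not tested. No WT library had a ratio as low as that of KO replicates 1 and 3. If no WT library carried cre, cre and the interrupted *Cd79a* copy cannot be told apart from the loss of *Hif1a* here. The labels alone place the library labelled KO replicate 2 in the KO group. Its genotype is in doubt from these values, and each KO mean over 3 libraries includes it. Results that rest on WT replicate 1 or on the library labelled KO replicate 2 are given with and without it. WT replicate 1 was singled out by these same values, in which it lay with the KO libraries. Leaving it out tends to widen the gap between the groups, so p-values from such fits are no independent test.

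*Hif1a*, the targeted gene (chr12:73901375-73947530, plus strand, GRCm38), was at 36.5, 49.8 and 45.8 FPKM in WT replicates 1 to 3 and 46.5, 45.6 and 52.8 FPKM in KO replicates 1 to 3. The groups overlapped, and the lowest of all libraries was WT replicate 1. The log2 fold change, KO over WT on the log2(FPKM + 1) scale, was 0.14 (SE 0.12, 95% interval −0.15 to 0.43, limma adjusted p = 0.701), and 0.012 without WT replicate 1. Without the library labelled KO replicate 2 it was 0.18 (limma adjusted p = 0.705). The level of the whole gene is no check of the deletion. In a widely used floxed allele the removed part is exon 2, which in the longest coding transcript has 191 bases (chr12:73926557-73926747) of 4724, or 4.04%. A transcript that lacks it still counts nearly in full. The antisense gene *Gm15283* overlaps *Hif1a*, and reads of both cannot be told apart if the counting did not use the strand; its level was 0.5 to 0.823 FPKM.

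None of the 8 members tested was differentially expressed between KO and WT at a limma adjusted p under 0.05. Over all 13312 genes tested, 0 were called, or 0%, and 929 (6.98%) had an unadjusted p under 0.05, none of them a member. The median log2 fold change was 0.11 over the 8 members and −0.028 over all genes tested, with 6 members above 0 and 2 below. Among all 9 members, *Arnt* and *Epas1* had KO values that all lay above the WT values. Such a separation, in either direction, was found for 10.6% of the 15723 genes with at least 30 reads in all. Without WT replicate 1 it was found for 6 of the 9 members (5 with KO above WT, 1 with KO below), and for 48.8% of those genes. Without the library labelled KO replicate 2 it was found for 2 members, and for 21.8% of those genes.

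**Figure D1:**
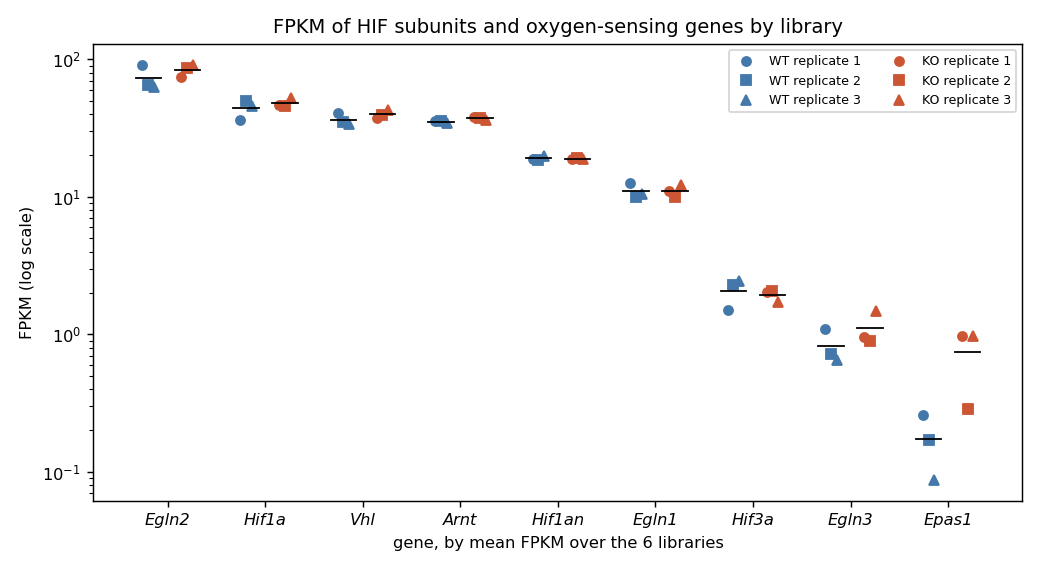
FPKM of the 9 genes (log axis) in each of the 6 libraries, with WT in blue, KO in orange, a symbol for each replicate number and a black line at each group's mean. The genes run from *Egln2* at a mean of 78.6 FPKM to *Epas1* at 0.459 FPKM, and the WT and KO symbols overlap for all but *Arnt* and *Epas1*.

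*Epas1* (chr17:86753700-86833410, plus strand) encodes HIF-2α, the second oxygen-regulated α subunit, which is best known from endothelial cells, kidney and macrophages. It was the member with the lowest level and the one that differed most between libraries. Its level was 0.258, 0.170 and 0.0870 FPKM in WT replicates 1 to 3, from 51, 28 and 12 reads. In KO replicates 1 to 3 it was 0.978, 0.285 and 0.977 FPKM, from 130, 52 and 155 reads. KO replicates 1 and 3 were well above the rest, and the library labelled KO replicate 2 was just above WT replicate 1. The means were 0.172 ± 0.0855 (SD, n = 3) in WT and 0.747 ± 0.400 FPKM (SD, n = 3) in KO, a ratio of 4.35. The exact permutation test of 3 against 3, two-sided, gave p = 0.1, the smallest it can give. A fit of the recovered read counts (limma voom on genes with at least 30 reads), chosen after seeing the data, gave a log2 fold change of 1.89 (SE 0.68, 95% interval 0.31 to 3.48). Its unadjusted p was 0.0252 and its adjusted p over 15723 genes was 0.676. Over the fits that left out 1 library in turn the log2 fold change lay between 1.53 and 2.55. It was highest without the library labelled KO replicate 2, at 2.55 (SE 0.36, 95% interval 1.68 to 3.42, adjusted p = 0.746).

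The libraries that were high for *Epas1* were those with the low *Cd79a* ratio. *Ankrd37*, a gene that HIF-1 activates directly, was likewise at 0.474 and 0.397 FPKM in KO replicates 1 and 3. It was at 3.68 FPKM in the library labelled KO replicate 2 and at 3.96, 2.09 and 3.15 FPKM in WT replicates 1 to 3. In these 3 measures KO replicates 1 and 3 stood together and the library labelled KO replicate 2 was near the WT libraries. The grouping was noticed in the values, and its cause was not tested. Other HIF-responsive genes, compared here after their values were seen, did not all share it. The library labelled KO replicate 2 was the lowest of all libraries for *Vegfa*, *Higd1a* and *P4ha1* (9.41, 16.6 and 4.35 FPKM). For *Bhlhe40*, at 158.4 FPKM, it lay within the WT range. The sort described in the methods would remove cells other than B cells, and markers of such cells were read in the libraries. In bulk samples fewer cells of a type cannot be told apart from less RNA per cell. The 7 endothelial and stromal markers summed to 82.6 to 85.8 FPKM in WT and 76.7 to 98.6 FPKM in KO. Nearly all of it was *Pecam1*, which B cells also express, and the other 6 markers were each under 1 FPKM in every library. The 9 macrophage and monocyte markers summed to 74.1 to 169.3 FPKM in WT and 67.4 to 79.1 FPKM in KO. The most abundant was *Adgre1* (F4/80), at 59.8 to 91.1 FPKM in WT and 55.5 to 69.7 FPKM in KO, and it held most of each sum. *Csf1r* (the receptor of CSF-1) was at 0.176 to 0.754 FPKM in WT and 0.0466 to 0.172 FPKM in KO, without overlap. The complement genes *C1qb* and *C1qc* were apart in the same direction, as 10.6% of genes with at least 30 reads were in either. *C1qa* overlapped, at 0.103, 2.98 and 1.33 FPKM in WT and 0.0384 to 0.193 FPKM in KO. *Mrc1* went the other way, with means of 0.898 FPKM in WT and 0.991 FPKM in KO. *Lyz2* (lysozyme), named after its values were seen, was at 6.18, 58.3 and 26.2 FPKM in WT and 0.6, 2.23 and 3.70 FPKM in KO. It was thus lower in the KO group, where *Epas1* was higher. Within KO this did not hold throughout, as KO replicate 3 was above the library labelled KO replicate 2 for both genes. The part of these cells in the *Epas1* values was not tested further.

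**Figure D2:**
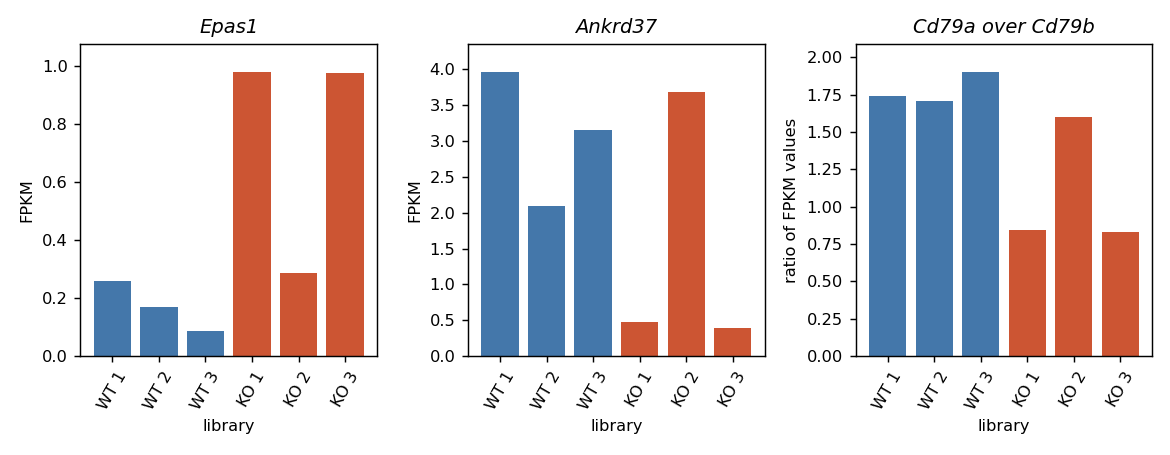
Bars from 0 give *Epas1* FPKM, *Ankrd37* FPKM and the ratio of *Cd79a* to *Cd79b* FPKM in each library, with WT in blue and KO in orange. KO 1 and KO 3 stand apart in all 3 panels (*Epas1* 0.978 and 0.977 FPKM, *Ankrd37* 0.474 and 0.397 FPKM, ratio 0.845 and 0.832), while KO 2 is near the WT libraries.

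*Hif3a* (chr7:17031507-17062427, minus strand) encodes the third α subunit, several forms of which lack the activation domain and can dampen HIF activity. Its level was 1.49, 2.30 and 2.46 FPKM in WT and 2.03, 2.07 and 1.73 FPKM in KO replicates 1 to 3. The groups overlapped through WT replicate 1, which was the lowest library. The log2 fold change was −0.054 (SE 0.15, 95% interval −0.41 to 0.30, limma adjusted p = 0.903). It was −0.20 without WT replicate 1, and slightly above 0 without WT replicate 2 (0.002) or WT replicate 3 (0.037).

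Among the 3 α subunits *Hif1a* held nearly all of the summed FPKM. Its share was 95.4, 95.3 and 94.7% in WT replicates 1 to 3 and 93.9, 95.1 and 95.1% in KO replicates 1 to 3. The means were 95.1% ± 0.373 (SD, n = 3) and 94.7% ± 0.683 (SD, n = 3), a difference of −0.438 percentage points (exact permutation test, two-sided, p = 0.5). This difference was −0.625 points without the library labelled KO replicate 2 and −0.294 points without WT replicate 1. The share of *Epas1* was 0.674, 0.326 and 0.180% in WT and 1.98, 0.595 and 1.76% in KO replicates 1 to 3. These values overlapped, because WT replicate 1 lay above the library labelled KO replicate 2 (exact permutation p = 0.2). The share of *Hif3a* was 3.90 to 5.10% in WT and 3.12 to 4.32% in KO (exact permutation p = 0.4). Of the summed reads, which give the long *Epas1* transcript more weight, *Hif1a* held 94.6 to 95% in WT and 91.8 to 94.5% in KO. On that scale every KO library was below every WT library, and p = 0.1 was the smallest that the exact permutation test allows. Per kilobase of the longest coding transcript, a scale chosen after seeing the data, *Hif1a* held 95.9 to 96.2% in WT and 93.3 to 95.7% in KO. These values did not overlap either (difference −1.49 points, exact permutation p = 0.1).

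*Arnt* (chr3:95434388-95497240, plus strand) encodes the constitutive subunit HIF-1β, shared by all 3 α subunits and by the aryl hydrocarbon receptor. Its level was 35.6, 35.6 and 34.4 FPKM in WT and 37.8, 37.6 and 36.4 FPKM in KO replicates 1 to 3. All KO libraries lay above all WT libraries, and the SD within a group was 0.700 (WT) and 0.741 FPKM (KO), each n = 3. For *Arnt* the log2 fold change was 0.080 (SE 0.056, 95% interval −0.053 to 0.21, limma adjusted p = 0.658). It stayed between 0.064 and 0.11 over the 20 alternative fits. A difference of more than 0.21, or of more than 0.053 downward, lay outside the interval. The processed pseudogene *Gm42672* overlaps *Arnt* and was at 0.184 to 0.547 FPKM.

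The prolyl hydroxylases differed far more from each other than between the groups. *Egln2* (PHD1, chr7:27158658-27166802, minus strand) had the highest level of the 9 members, above 87.5% of the genes tested. It was at 91.4, 65.4 and 63.3 FPKM in WT and 74.4, 86.1 and 91.0 FPKM in KO replicates 1 to 3. WT replicate 1 had the highest value of all libraries and the other WT libraries had the lowest. The log2 fold change was 0.21 (SE 0.15, 95% interval −0.16 to 0.57, limma adjusted p = 0.669). Without WT replicate 1 it was 0.37 (SE 0.093, 95% interval 0.15 to 0.60, limma adjusted p = 0.0606). It was 0.13, 0.11 and 0.14 without WT replicate 2, WT replicate 3 and KO replicate 3, and 0.29 and 0.18 without KO replicate 1 and the library labelled KO replicate 2. The fit of the recovered reads without WT replicate 1 gave 0.38 with an adjusted p of 0.0354 and so called *Egln2*, as it called 12.6% of the 15723 genes it tested. Over all 20 alternatives the adjusted p of *Egln2* lay between 0.0354 and 1. The gene *Cyp2t4* overlaps *Egln2* on the other strand and was at 0.145 to 0.542 FPKM.

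*Egln1* (PHD2, chr8:124908587-124949324, minus strand), the main oxygen sensor in most tissues, was at 12.6, 10.0 and 10.5 FPKM in WT and 11.0, 9.99 and 12.2 FPKM in KO replicates 1 to 3. The groups overlapped over their whole range, with a log2 fold change of 0.006 (SE 0.11, 95% interval −0.26 to 0.27, limma adjusted p = 0.986). It was 0.071 without the library labelled KO replicate 2 and 0.10 without WT replicate 1. *Egln3* (PHD3, chr12:54178981-54203860, minus strand), known as strongly induced by hypoxia in many cells, was near the limit of the test, with 45 to 118 reads per library. It was at 1.09, 0.716 and 0.651 FPKM in WT and 0.961, 0.897 and 1.48 FPKM in KO replicates 1 to 3. KO replicate 3 was the highest library, and WT replicates 2 and 3 were the lowest. The log2 fold change was 0.21 (SE 0.16, 95% interval −0.16 to 0.59, limma adjusted p = 0.670) and the added 1 FPKM makes the change of a gene this low look smaller. On the recovered reads it was 0.41 (SE 0.29, adjusted p = 0.705). With 1 library left out at a time, limma gave 0.092 without KO replicate 3 as the lowest and 0.32 without WT replicate 1 as the highest, where the groups no longer overlapped, and 0.29 without the library labelled KO replicate 2. The fits of the reads gave 0.18 and 0.66 without these first 2 libraries.

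Promoter windows of the 3 prolyl hydroxylase genes are shown because the genes differ in level and because HIF is known to act on some of them. The windows are from RefSeq (GRCm38.p6), run 5′ to 3′ on the strand of the gene, and span 250 bases before to 50 after an annotated start. Capitals mark the HIF core ACGTG on either strand.
*Egln1*, chr8:124949205-124949504, minus strand: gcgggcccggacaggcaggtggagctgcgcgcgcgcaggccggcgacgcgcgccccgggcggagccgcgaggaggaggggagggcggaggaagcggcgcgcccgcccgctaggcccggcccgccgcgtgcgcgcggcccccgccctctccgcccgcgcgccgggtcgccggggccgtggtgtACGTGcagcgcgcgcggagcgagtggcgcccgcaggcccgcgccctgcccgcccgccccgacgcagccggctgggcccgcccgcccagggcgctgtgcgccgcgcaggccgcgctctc
*Egln2*, chr7:27166753-27167052, minus strand: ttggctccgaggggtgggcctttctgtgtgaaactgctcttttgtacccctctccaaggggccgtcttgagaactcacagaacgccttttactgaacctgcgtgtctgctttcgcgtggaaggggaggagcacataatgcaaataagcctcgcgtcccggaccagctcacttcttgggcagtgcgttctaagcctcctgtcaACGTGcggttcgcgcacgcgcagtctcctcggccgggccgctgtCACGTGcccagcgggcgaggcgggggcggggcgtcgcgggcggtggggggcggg
*Egln3*, chr12:54203825-54204124, minus strand: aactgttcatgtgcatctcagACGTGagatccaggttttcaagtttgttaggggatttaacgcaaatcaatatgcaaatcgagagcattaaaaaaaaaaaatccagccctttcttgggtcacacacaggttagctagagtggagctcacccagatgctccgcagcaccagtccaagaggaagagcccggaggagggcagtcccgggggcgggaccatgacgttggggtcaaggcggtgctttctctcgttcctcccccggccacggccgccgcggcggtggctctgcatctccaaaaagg

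The *Egln1* window held 1 match, whose first base lies 68 bases before the start. The *Egln3* window also held 1, which begins 229 bases before the start. The *Egln2* window held 3, beginning 48, 4 and 3 bases before the start. The last pair overlap on opposite strands within the palindrome CACGTG. Of 32851 promoter windows of the same length, 19.6% held ACGTG on either strand, and 32.4% held GCGTG, the other form of the core. Of the 9 members 8 had a window and *Epas1* had none; *Egln2* had a second one, at chr7:27165679-27165978, without ACGTG. The window of *Hif1a* held ACGTG as well, and those of *Arnt*, *Vhl*, *Hif3a* and *Hif1an* did not. GCGTG was found 3 times in the first *Egln2* window, 2 times in that of *Hif3a* and 1 time each in those of *Arnt*, *Egln1* and the second of *Egln2*. The windows of *Vhl* and *Hif1an* held neither form. These are matches of letters, and binding was not measured.

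As shares of the summed FPKM of the 3 enzymes, *Egln2* held 87.0, 85.9 and 85.0% in WT and 86.2, 88.8 and 86.9% in KO replicates 1 to 3. The means were 86.0% ± 0.981 and 87.3% ± 1.33 (SD, n = 3 each), a difference of 1.31 percentage points (exact permutation test, two-sided, p = 0.3). This difference was 0.571 points without the library labelled KO replicate 2 and 1.82 points without WT replicate 1. *Egln1* held 12 to 14.1% in WT and 10.3 to 12.7% in KO (exact permutation p = 0.2). *Egln3* held 0.875 to 1.04% in WT and 0.924 to 1.42% in KO (exact permutation p = 0.3). None of the 3 shares passed the test, which cannot give a p under 0.1 with these groups.

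*Hif1an* (chr19:44562850-44576274, plus strand) encodes FIH, the asparaginyl hydroxylase. It was the steadiest member, at 18.9, 18.5 and 19.9 FPKM in WT and 19.0, 19.1 and 18.8 FPKM in KO replicates 1 to 3. All KO values lay within the range of the WT values. KO over WT, the log2 fold change was −0.011 (SE 0.063, 95% interval −0.16 to 0.14, limma adjusted p = 0.959), and median-ratio scaling (0.022) or quantile normalization (0.005) turned its sign.

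*Vhl* (chr6:113623959-113631633, plus strand) encodes the substrate receptor that binds hydroxylated α subunits. It was at 40.4, 35.3 and 33.8 FPKM in WT and 37.5, 39.6 and 43.0 FPKM in KO replicates 1 to 3. WT replicates 2 and 3 were the lowest libraries, and WT replicate 1 lay within the KO range. For *Vhl* the log2 fold change was 0.13 (SE 0.090, 95% interval −0.080 to 0.35, limma adjusted p = 0.653). It was 0.14 without the library labelled KO replicate 2. Without WT replicate 1 it was 0.21 (SE 0.075, 95% interval 0.024 to 0.39, limma adjusted p = 0.133), and over all 20 alternatives it lay between 0.080 and 0.21. Leaving out that library called 1251 genes, or 9.40% of those tested, and none of the 8 members, while 2 of the 8, *Egln2* and *Vhl*, and 29.9% of all genes tested had an unadjusted p under 0.05 in that fit.

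**Figure D3:**
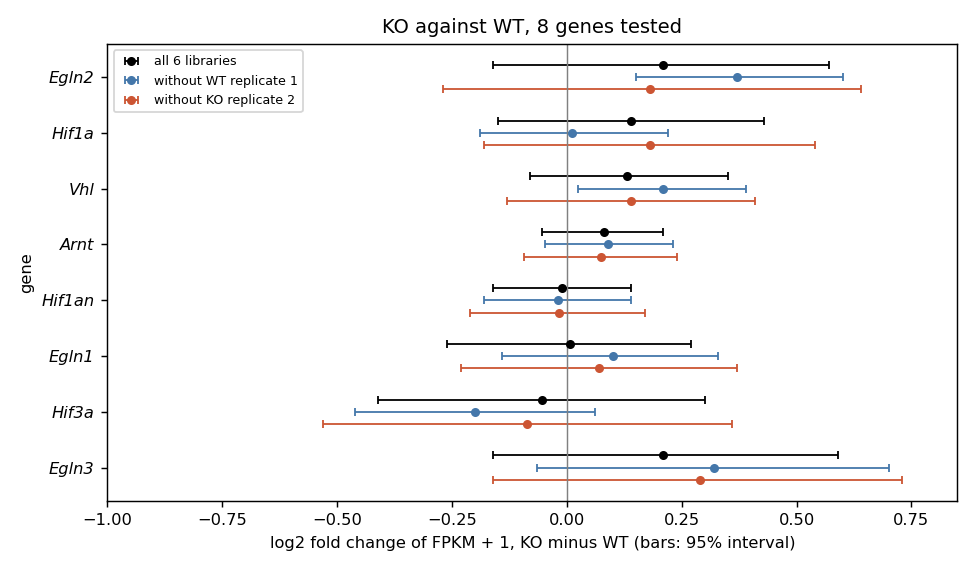
Log2 fold changes of FPKM + 1, KO minus WT, of the 8 genes tested, with 95% intervals from limma, for all 6 libraries (black), without WT replicate 1 (blue) and without KO replicate 2 (orange). All 8 black and all 8 orange intervals include 0, and without WT replicate 1 the intervals of *Egln2* (0.15 to 0.60) and *Vhl* (0.024 to 0.39) do not.

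The order of the levels, per length, was *Egln2* (mean 78.6 FPKM over the 6 libraries), *Hif1a* (46.2), *Vhl* (38.3), *Arnt* (36.2), *Hif1an* (19.0), *Egln1* (11.0), *Hif3a* (2.01), *Egln3* (0.966) and *Epas1* (0.459). Of the 8 pairs of neighbours 5 had the same order in all 6 libraries. Each of these gave p = 0.0312 in the exact sign-flip permutation test, the smallest it can give, and a Benjamini-Hochberg adjusted p of 0.05, which is at and not under the threshold. The pairs and their direction were set by the same values, with WT and KO libraries pooled, so the p-values of this order are no independent test. *Hif1a* was above *Vhl*, and *Egln3* above *Epas1*, in 5 of 6 libraries (exact permutation adjusted p = 0.0714 each). *Vhl* and *Arnt* were in this order in 3 of 6 libraries (exact permutation adjusted p = 0.250).

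The order depended on the length that a gene was given. The length behind the deposited FPKM was recovered from the values and, for 7 of the 9 members, equals the mean over all annotated transcripts, short fragments included. For *Vhl* this was 1022 bases, while its longest coding transcript has 2792. For *Hif3a* it was 2360 against 6402 bases, for *Hif1a* 2409 against 4724, and for *Egln1* 3515 against 3594. With reads per kilobase of the longest coding transcript, chosen after seeing the data, *Egln2* (44.3) and *Hif1a* (23.5) still led. *Arnt* (19.6) then stood above *Vhl* (14.0) in 6 of 6 libraries, and *Egln3* (0.966) above *Hif3a* (0.743) in 4 of 6. *Hif1an* and *Egln1* came out at 10.8 each. A length acts alike on all libraries and leaves the ratio of FPKM between KO and WT as it is, but it sets the level to which 1 FPKM is added and so bears on the fitted change of low genes. For *Egln3* this change was 0.21 with 1 FPKM added and 0.40 with 0.1 FPKM.

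**Figure D4:**
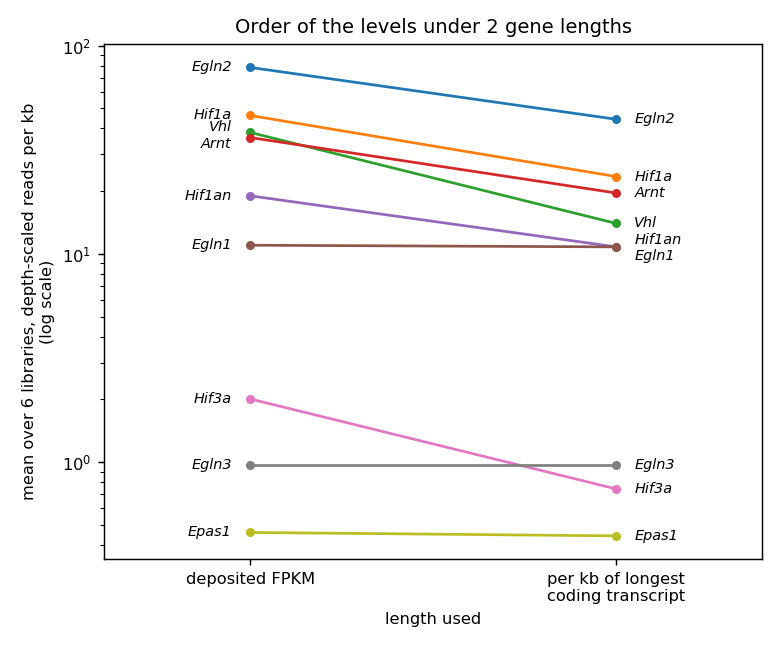
Mean level of each gene over the 6 libraries on a log axis, as deposited FPKM (left) and as depth-scaled reads per kilobase of the longest coding transcript (right), with 1 line per gene. The lines of *Vhl* and *Arnt* cross (38.3 and 36.2, then 14.0 and 19.6), as do those of *Hif3a* and *Egln3* (2.01 and 0.966, then 0.743 and 0.966).

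Among the genes tested, *Rbm7* (Pearson's r 0.972, Spearman's rho 0.94), *Csnk1a1* (0.969 and 0.94) and *Togaram1* (0.969 and 0.94) had the profiles most like that of *Hif1a* over the 6 libraries. The most negative values were those of *Wwp2* (r −0.988, rho −0.94), *Hspa12a* (−0.970 and −1) and *Ldha* (−0.963 and −0.71). In all, 42 genes had an r of at least 0.9 and 17 one of at most −0.9. With 6 libraries, where WT replicate 1 is lowest for *Hif1a* and KO replicate 3 highest, these values describe the libraries and are no test.

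The other genes of the pathway were taken from 5 lists, and with all 6 libraries 0 of the 42 tested were called by limma, while 5 had an unadjusted p under 0.05. The VHL ubiquitin ligase, which joins VHL to its elongin, cullin and RING partners, had 4 of 4 genes tested, all with a log2 fold change below 0 (median −0.10, against −0.028 over all genes). *Elob*, the elongin B adaptor, was at 221.9 to 243.4 FPKM in WT and 194.8 to 221.2 FPKM in KO, with every KO library below every WT library. Its log2 fold change was −0.15 (SE 0.074, limma adjusted p = 0.626). The cullin *Cul2* was at −0.11 and *Eloc* (elongin C) at −0.082, both overlapping. *Vhl* itself, at 0.13, lay on the other side of 0 from its partners, and none of the 5 passed the test.

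The coactivators and their competitors had 5 of 7 genes tested, 4 above 0 and 1 below. *Ep300*, the acetyltransferase whose binding FIH blocks, was at 84.9 to 103.7 FPKM in WT and 87.9 to 108.4 FPKM in KO (log2 fold change 0.013, SE 0.11). *Ncoa1*, a histone acetyltransferase coactivator, was at 9.59 to 10.3 FPKM in WT and 10.8 to 11.5 FPKM in KO, without overlap (0.17, SE 0.072, limma adjusted p = 0.626). *Cited2*, which competes with HIF for the p300 surface, was at 0.13 and *Crebbp*, the paralog of p300, at −0.12. *Cited1* and *Cited4* were too low to be tested.

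The other bHLH-PAS proteins had 5 of 11 genes tested, all 5 below 0. *Ahr*, the aryl hydrocarbon receptor that shares ARNT with HIF, was at 67.7, 98.5 and 94.9 FPKM in WT and 80.9, 70.7 and 78.7 FPKM in KO replicates 1 to 3. WT replicate 1 was lower than every KO library, and the other WT libraries were higher. For *Ahr* the log2 fold change was −0.16 (SE 0.15, limma adjusted p = 0.705) with it and −0.33 (SE 0.074, limma adjusted p = 0.0460) without it. *Ahrr*, the repressor of that receptor, was at −0.30 (SE 0.18, limma adjusted p = 0.633) with all libraries and −0.50 (SE 0.093, limma adjusted p = 0.0290) without WT replicate 1. Without WT replicate 1 limma called 2 of the 5, against 9.40% of all genes tested. *Clock*, a circadian bHLH-PAS factor, was at −0.14 (SE 0.10). *Arnt2*, the paralog that can replace ARNT in neurons, had a nonzero value in 1 library only, at 0.00539 FPKM.

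The other factors that bear on the stability of HIF-1α had 11 of 11 genes tested, 4 above 0 and 7 below, with a median of −0.093. *Hsp90ab1*, a chaperone that protects HIF-1α, was the most abundant of them, at 3638 to 4131 FPKM in WT and 3220 to 3760 FPKM in KO (−0.18, SE 0.10, limma adjusted p = 0.626). *Hsp90aa1*, the inducible form, was at −0.19 and *Usp20*, a deubiquitinase that acts against VHL, at −0.16. The KO and WT values of all 3 overlapped.

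The 18 HIF-responsive genes, a readout of the activity of the factor, had 17 genes tested, 5 above 0 and 12 below, with a median of −0.14. No gene was called. An unadjusted p under 0.05 was found for 5 of the 17, against 6.98% of all genes tested. Of these, *Vegfa* (−0.80, SE 0.29), *Ddit4* (−0.52, SE 0.15), *P4ha1* (−0.26, SE 0.10) and *Higd1a* (−0.24, SE 0.079) were below 0 and *Pfkfb3* (0.17, SE 0.070) above, each with a limma adjusted p of 0.626. All but *Vegfa* were chosen for naming after their values were seen. KO and WT values did not overlap for 4 of the 17, against 10.1% of all genes tested, and these were *Ddit4*, *P4ha1*, *Higd1a* and *Pfkfb3*.

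*Vegfa*, the angiogenic growth factor, was at 10.9, 24.9 and 23.9 FPKM in WT and 10.3, 9.41 and 11.4 FPKM in KO replicates 1 to 3. WT replicate 1 was within the KO range, and the other WT libraries were far above it. *Adm* (adrenomedullin, a vasodilator peptide) had the same layout, at 5.20, 9.85 and 10.1 FPKM in WT and 5.03, 5.97 and 4.69 FPKM in KO (−0.55, SE 0.23, limma adjusted p = 0.626). *Bhlhe40*, a transcriptional repressor, was the most abundant of the list, at 144.0 to 172.4 FPKM in WT and 132.6 to 158.4 FPKM in KO (−0.14, SE 0.10). *Ankrd37* had the largest difference, −0.91 (SE 0.47, limma adjusted p = 0.626), which was −1.48 (SE 0.22, limma adjusted p = 0.683) without the library labelled KO replicate 2 and −0.75 without WT replicate 1.

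Without WT replicate 1, 6 HIF-responsive genes were called, against 9.40% of all genes tested. As WT replicate 1 was singled out for its likeness to KO in these same values, these calls are no independent test. *Vegfa* (−1.16, SE 0.092, limma adjusted p = 0.00390), *Ddit4* (−0.70, adjusted p = 0.00603), *Adm* (−0.82, adjusted p = 0.0121), *Ero1l* (−0.38, adjusted p = 0.0296) and *Higd1a* (−0.30, adjusted p = 0.0453) were lower in KO. *Ndrg1* (0.53, adjusted p = 0.0293), a stress-response gene of differentiating cells, was higher. Without the library labelled KO replicate 2 none was called by limma, and 2 of the 17 and 4.75% of all genes tested had an unadjusted p under 0.05. Among the macrophage markers, *Lyz2* moved with these values and was at 58.3 and 26.2 FPKM in the WT libraries with high *Vegfa* and at 6.18 FPKM in WT replicate 1. *Adgre1*, *Cd68*, *C1qa*, *C1qb*, *C1qc* and *Csf1r* were likewise lowest among WT in WT replicate 1, and *Mrc1* and *Fcgr1* were not. Without that library 4 of the 5 markers tested had a limma unadjusted p under 0.05, all lower in KO, against 29.9% of all genes tested. Limma called 2 of them, against 9.40% of all genes tested. Plasma-cell genes moved in part, with the joining chain *Jchain* at 181.7 FPKM in WT replicate 1, 90.5 and 84.0 FPKM in the other WT libraries and 141.9 to 220.3 FPKM in KO. *Xbp1*, a regulator of antibody secretion, was at 363.3 FPKM in WT replicate 1, 213.3 and 193.4 FPKM in the other WT libraries and 233.3 to 474.1 FPKM in KO. *Prdm1*, with the largest change of the plasma-cell genes tested, was at 40.0 FPKM in WT replicate 1. It was at 17.1 and 16.7 FPKM in the other WT libraries and 29.2 to 55.9 FPKM in KO. *Sdc1*, the plasma-cell surface marker CD138, did not follow them, at 3.19 to 4.67 FPKM in WT and 2.68 to 4.01 FPKM in KO, and of the 4 plasma-cell genes tested 3 were above 0 and 1 below. Without WT replicate 1, 3 of the 4 had a limma unadjusted p under 0.05, all higher in KO, and limma called 2. Over all genes tested these shares were 29.9% and 9.40%. The B cells had been sorted before culture, according to the methods, and the part of other cells in the HIF-responsive genes was not tested.

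**Figure D5:**
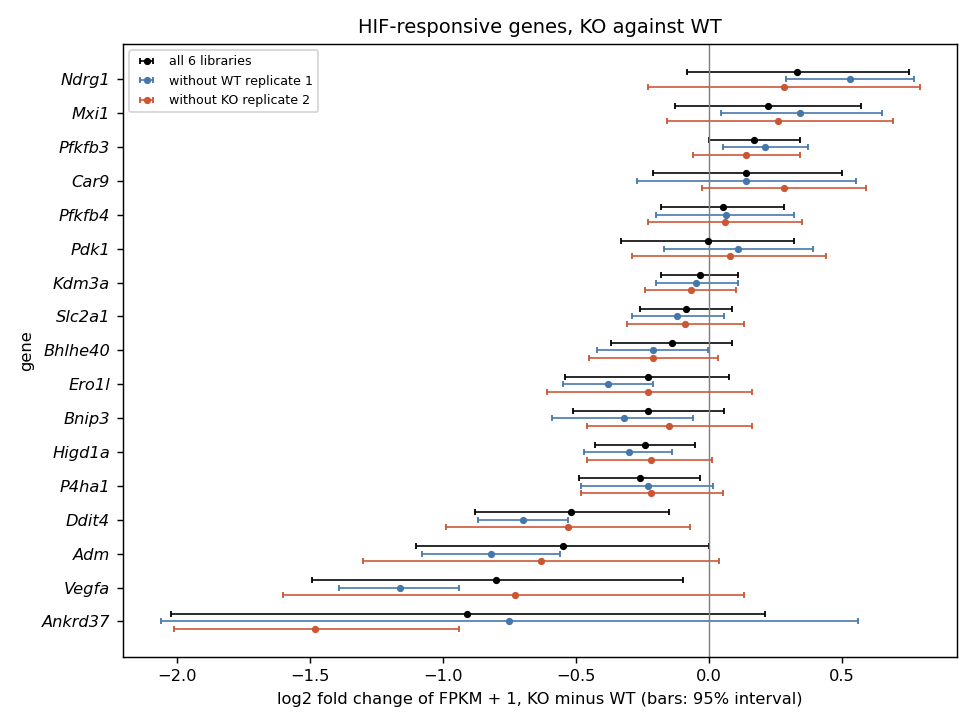
Log2 fold changes of FPKM + 1, KO minus WT, of the 17 HIF-responsive genes tested, with 95% intervals from limma, for all 6 libraries (black), without WT replicate 1 (blue) and without KO replicate 2 (orange). *Vegfa*, *Adm* and *Ddit4* lie farther below 0 with narrower intervals without WT replicate 1 (−1.16, −0.82 and −0.70), and *Ankrd37* does so without KO replicate 2 (−1.48).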

How the data were processed

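The sources used here give the authors' steps as alignment to mm10 with TopHat, counting per gene with HTSeq and computing of FPKM from count and gene length. The authors deposited FPKM values, 1 column per library. The annotation release, the strand setting and any scaling are not given in the sources used here. The members and lists were chosen with earlier results of these data known. GENCODE vM21 (GRCm38) gave coordinates and symbols, and held 46488 of the 46983 IDs. Whole reads were recovered for all 25717 genes above 0, within 0.01 reads. Groups and replicate numbers came from the labels.

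In R 4.3.3, limma 3.58.1 (eBayes with trend) was run on log2(FPKM + 1) over the 13312 genes that averaged 0.5 FPKM or more, with Benjamini-Hochberg adjustment at 0.05. Shares and orders were tested by exact permutation. The fit was tested on simulated data. Alternatives were a pseudocount of 0.1, no filter or one at a mean of 5 FPKM, median-ratio or quantile scaling, the replicate number as a block, voom on the recovered reads, and each library left out. Genes named are all members; the most abundant gene and at most 3 with the largest change of each pathway list; the 3 most and 3 least like *Hif1a*; and the most abundant of each marker list. *Lyz2*, *Csf1r*, *C1qa*, *C1qb*, *C1qc*, *Cd68*, *Mrc1*, *Fcgr1*, *S100a8*, *Jchain*, *Prdm1*, *Sdc1*, *Cd79a*, *Cd79b*, *Ddx3y*, *Ddit4*, *P4ha1*, *Higd1a*, *Pfkfb3*, *Ero1l*, *Ndrg1* and overlapping genes fall outside this rule and were named after their values were seen. *Bmal1* and *Ero1a* were found under *Arntl* and *Ero1l*. Markers of dendritic cells (12.0 to 17.9 FPKM summed, led by *Flt3*) and plasma cells were checked as well. Python 3.11.15 made the tables.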

Additional observations from a re-analysis of the deposited data

How the results depend on the processing

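The count of members called was 0 with all 6 libraries and 0 under every alternative but voom on all genes with at least 30 reads without WT replicate 1, which called 1, *Egln2* (log2 fold change 0.38, adjusted p = 0.0354). The count over all genes ranged from 0 to 1251 over the fits that left out 1 library. It was 1251 without WT replicate 1, 1 without *Hif1a* KO replicate 1 and 0 for the others, while the added voom fit without WT replicate 1 called 1987. Of the 42 pathway genes tested by limma 8 were called without WT replicate 1, where 9.40% of all genes tested were called. The added voom fit without WT replicate 1 also called 8 pathway genes, and 12.6% of the 15723 genes it tested. Under the rest 0 pathway genes were called. With the replicate number as a block 0 members, 0 pathway genes and 0 of all genes were called. Whether WT and KO libraries of a number belong together is not in the labels. Their deviations from the group means correlated at −0.10, 0.14 and −0.28, which cannot decide it with 3 libraries per group. The smallest adjusted p of all genes was 0.321 with all libraries and 0.780 under the block.

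Signs turned where the log2 fold change was near 0. *Hif3a* (−0.054) was 0.002 and 0.037 without WT replicates 2 and 3, and under the added voom fits 0.065 and 0.088 without these and 0.045 without KO replicate 3. *Egln1* (0.006) was −0.000 under both voom fits, −0.055, −0.023 and −0.061 without WT replicate 2, WT replicate 3 and KO replicate 3, and −0.068, −0.031 and −0.076 in the added voom fits without these. *Hif1an* (−0.011) was 0.022 with median-ratio scaling, 0.005 with quantile normalization, and without WT replicate 3 it was 0.019 or, with voom, 0.020. Left out 1 library at a time, the extremes on the other side were −0.20 for *Hif3a* and 0.10 for *Egln1* (−0.29 and 0.10 with the added voom fit), both without WT replicate 1, and −0.032 for *Hif1an* (−0.033 with that fit), without WT replicate 2. The causes were not tested. *Hif1a*, *Arnt*, *Egln2*, *Egln3* and *Vhl* kept their direction under all alternatives run. So did the differences in the *Hif1a* share (−1.61 to −0.0437 percentage points) and the *Egln2* share (0.571 to 2.55 points). The number of neighbouring pairs ordered alike in every library was 4 to 6. At 12 to 155 reads per library, *Epas1* is limited by depth.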
